A study of Mus musculus with 32 samples.

Results

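Of the 54532 genes in the deposited table, 47 protein-coding genes had a symbol made of Slc25a and a number, and these mitochondrial solute carriers were followed across 4 tissues and with auranofin. Most proteins of this family sit in the inner mitochondrial membrane and exchange one metabolite of the matrix for another on the cytosolic side: ATP for ADP, citrate for malate, aspartate for glutamate, acylcarnitine for carnitine. They link the respiratory chain to the cytosol, and in liver they serve the urea cycle and gluconeogenesis, in white fat the export of citrate for lipid synthesis, and in brown fat the supply of fuel for heat production. Uncoupling protein 1 (Ucp1), its relatives Ucp2 and Ucp3, and Mtch1 and Mtch2 belong to the same family under other names and were not counted among the 47.

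RNA was sequenced from liver, interscapular brown fat (BAT), epididymal white fat (eWAT) and inguinal white fat (iWAT) of wild-type C57/Bl6j mice, and every group had eaten a diet with 60% fat for 12 weeks before treatment, so no lean group was compared. Mice were then given auranofin, a gold-containing drug for rheumatoid arthritis and a thioredoxin reductase inhibitor, for 4 weeks, in 3 doses a week of 1 mg per kg, or vehicle on the same schedule. Each of the 8 groups (auranofin and vehicle in each tissue) had 4 libraries of whole tissue, 32 in all, with 13606756 to 19205640 reads in genes per library. Levels are FPKM (fragments scaled to gene length and library size), given as mean ± SD (n = 4) or per library in the order 1 to 4. Differences are log2(FPKM + 1) ± SE from limma, which understates changes of low genes, and a Benjamini-Hochberg adjusted p under 0.05 over all genes tested was called. Whether the libraries of a group came from separate animals is not in the labels, so p-values may reflect technical spread alone.

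Hepatocyte marker genes summed to 66922 to 93515 FPKM in liver with auranofin and 63648 to 85225 with vehicle. Ucp1 had 3129 ± 786 FPKM in BAT with auranofin and 2506 ± 552 with vehicle, and was at 0 in all 8 liver libraries. Mesothelial markers, which mark the visceral depot, summed to 19.2 to 71.2 FPKM in eWAT and 0.201 to 4.11 in iWAT over both treatments. Several libraries stood apart. The median deviation of genes up to 2000 bases minus that of genes over 6000 bases was -0.16, 0.17, -0.36 and -0.36 (log2) in the iWAT auranofin libraries, against 0.30, 0.16, 0.032 and 0.21 in iWAT vehicle libraries. Auranofin library 2 of iWAT thus lay within the vehicle range. In eWAT the same index was 0.28, 0.012, 0.080 and 0.069 with auranofin and -0.12, -0.39, 0.0033 and -0.0055 with vehicle, where libraries 1 and 2 also held the most macrophage marker RNA (3194, 2965, 1282 and 1322 FPKM in libraries 1 to 4). Some results that rest on these libraries are given with and without them, and others with all libraries only. A value given alone may therefore depend on them.

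The deposited FPKM uses a rescaled library size, so the median gene differed by at most 0.037 (log2) between tissues. On the TPM scale, where every library has the same total, the median of all genes moved to -0.32 for BAT against iWAT, -0.69 for BAT against eWAT, -0.32 for liver against BAT, -0.62 for liver against iWAT, -0.98 for liver against eWAT and 0.32 for eWAT against iWAT. It also moved to 0.23 in iWAT and -0.14 in eWAT for auranofin against vehicle. Differences below are relative to the median gene as deposited, and carriers called in the same direction on both scales are named as such.

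Filtering on a mean of 0.5 FPKM over the libraries of a fit kept 40 of the 47 carriers for comparisons between tissues in vehicle libraries. All 40 were called in at least 1 of the 6 tissue pairs, as were 92.3% of all 14339 genes tested, and 8 in all 6, as were 7.69% of all genes. Of these 40, 33 had a vehicle mean of at least 0.5 FPKM in every tissue, 3 in 3 tissues, 3 in 2 and 1 in a single tissue (Slc25a21). The highest vehicle mean lay in liver for 19 carriers, in BAT for 16, in iWAT for 4 and in eWAT for 1. Those that did not pass were Slc25a2, Slc25a18, Slc25a31, Slc25a41, Slc25a43, Slc25a53 and Slc25a54. Slc25a41 and Slc25a54 had reads in at most 1 library of any group, and Slc25a43 reached 1.24, 0.540, 0.266 and 0.735 FPKM in eWAT vehicle libraries and was fitted in eWAT alone.

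The 4 carriers with contrasting tissue patterns are introduced by their promoters, because the tissue comparisons that follow turn on them: Slc25a47 (high in liver), Slc25a20 (high in BAT), Slc25a4 (low in liver) and Slc25a5 (high everywhere). Each stretch runs 5′ to 3′ from 250 bases before to 50 bases after a RefSeq gene start (GRCm38.p6), with CG dinucleotides in capitals.
Slc25a47 promoter, chr12:108850879-108851178, + strand: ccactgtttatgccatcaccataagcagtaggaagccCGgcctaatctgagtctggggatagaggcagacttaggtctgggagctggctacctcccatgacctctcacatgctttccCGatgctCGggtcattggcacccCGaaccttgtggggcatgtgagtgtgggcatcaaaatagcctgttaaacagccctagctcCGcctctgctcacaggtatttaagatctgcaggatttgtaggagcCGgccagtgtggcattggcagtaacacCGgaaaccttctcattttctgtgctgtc
Slc25a20 promoter, chr9:108661886-108662185, + strand: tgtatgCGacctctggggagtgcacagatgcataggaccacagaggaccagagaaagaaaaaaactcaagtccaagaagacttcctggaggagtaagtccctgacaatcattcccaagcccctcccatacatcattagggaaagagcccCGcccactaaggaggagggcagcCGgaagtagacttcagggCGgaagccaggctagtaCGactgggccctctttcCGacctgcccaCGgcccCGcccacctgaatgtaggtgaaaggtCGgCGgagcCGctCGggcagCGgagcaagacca
Slc25a4 promoter, chr8:46211013-46211312, - strand: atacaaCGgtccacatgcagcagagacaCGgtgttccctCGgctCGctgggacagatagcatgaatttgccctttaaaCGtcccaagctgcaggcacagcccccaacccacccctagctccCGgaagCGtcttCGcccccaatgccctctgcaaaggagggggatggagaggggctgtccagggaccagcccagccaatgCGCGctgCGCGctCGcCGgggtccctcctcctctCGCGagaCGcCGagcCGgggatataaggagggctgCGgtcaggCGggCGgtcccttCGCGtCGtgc
Slc25a5 promoter, chrX:36795347-36795646, + strand: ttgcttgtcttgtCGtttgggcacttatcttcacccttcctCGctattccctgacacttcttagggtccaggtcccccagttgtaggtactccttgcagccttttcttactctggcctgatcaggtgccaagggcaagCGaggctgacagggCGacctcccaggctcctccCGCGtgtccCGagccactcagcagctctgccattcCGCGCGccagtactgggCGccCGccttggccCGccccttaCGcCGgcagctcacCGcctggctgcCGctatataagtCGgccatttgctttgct

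Slc25a47 (chr12:108836046-108856815, 2985 bases of exon) held 7 CG dinucleotides in this window, which lies inside the gene span that the deposited table gives it. Slc25a20 (chr9:108662088-108684641) held 13, Slc25a5 (chrX:36795651-36798807) 18 and Slc25a4 (chr8:46206797-46211284) 25. Windows were available for 36 of the 47 carriers, 46 windows in all, with a median of 15 CG dinucleotides and a range of 1 (Slc25a34) to 51 (Slc25a15), against a median of 7 over all 32851 windows (quartiles 3 and 20). The letters CCAAT, searched on both strands, were in 22 of the 46 carrier windows (47.8%) and in 37.4% of all windows. TGACGTCA was in 2 (Slc25a25 and Slc25a36, 4.35%) against 1.79% of all. TCAAGGTCA, CAAAGTCCA, the direct repeat bound by PPAR and the NRF1 motif, also searched on both strands, were in none of the 46, against 0.423%, 0.475%, 0.04% and 0.971% of all windows. These are matches of letters only.

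Carrier mRNA as a whole was more abundant in liver and BAT than in white fat as deposited. The 47 carriers summed to 1840.4 ± 150.2 FPKM in liver with auranofin and 2028 ± 77.4 with vehicle, 1944 ± 152 and 1712 ± 175 in BAT, 804 ± 170.1 and 735 ± 137 in eWAT, and 1008 ± 407 and 1398 ± 132 in iWAT. As TPM the same sums were 3054 and 3393 in liver, 3858 and 3759 in BAT, 2749 and 2845 in eWAT, and 3368 and 3989 in iWAT, auranofin before vehicle. On that scale iWAT vehicle libraries exceeded liver, so the order of tissues in total carrier mRNA depends on the scaling.

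The make-up of that sum differed sharply. In vehicle liver, Slc25a47 made up 18.5% ± 0.604 of it, and at most 0.0817% in any fat depot. Slc25a5, the ADP/ATP carrier ANT2, took a similar share everywhere, with 17.7% ± 1.700 in liver, 16.2% ± 0.649 in BAT, 20.6% ± 3.33 in eWAT and 18.3% ± 0.438 in iWAT. The citrate carrier Slc25a1 made up 9.195% ± 0.974 in liver and 24.8% ± 2.35 in iWAT, where it was the largest item. Slc25a4 (ANT1) was 0.135% ± 0.0424 in liver and 10.8% ± 0.937 in BAT. Slc25a20, the carnitine/acylcarnitine carrier, reached 6.59% ± 0.557 in BAT, against 1.79% to 2.14% in the other tissues.

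**Figure D1:**
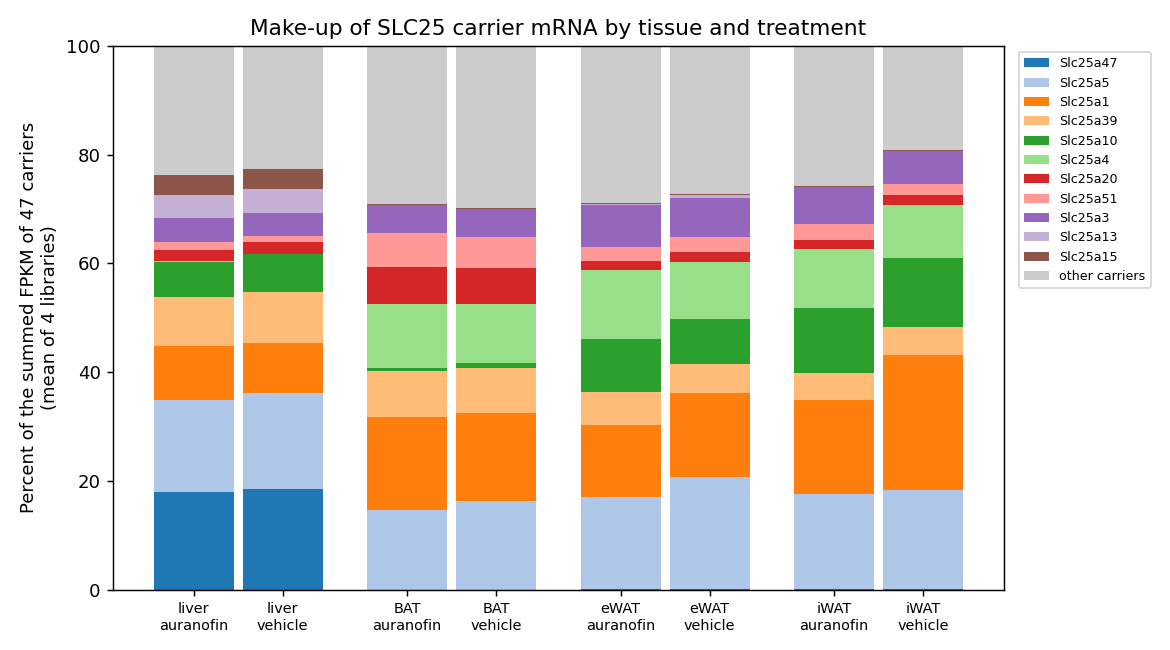
Share of the summed FPKM of the 47 carriers taken by each of 11 carriers and by the rest (grey), as the mean of 4 libraries per group, auranofin left of vehicle in each tissue. The dark blue block of Slc25a47 (18.5% with vehicle) stands in the liver bars alone, and the Slc25a1 block is largest in iWAT with vehicle (24.8%).

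Counted pair by pair in vehicle libraries, liver differed from the fat depots in most carriers, as in most genes. Liver against BAT called 32 of 40 carriers (18 higher, 14 lower), where 63.1% of all genes tested were called (31.4% higher, 31.8% lower). On the TPM scale it called 14 higher and 18 lower, against 65.3% of all genes (21.3% and 43.9%), and 14 and 14 were called in the same direction on both scales (21.3% and 31.7% of all genes). After quantile normalisation the split was 15 and 18, with 62.1% of all genes called. Liver against iWAT called 35 (25 higher, 10 lower), against 69.5% of all genes (35.8% and 33.7%). TPM gave 17 and 17, against 76.1% (19.2% and 56.9%), and 17 and 10 held on both scales (19.2% and 33.7%). Liver against eWAT called 34 (28 higher, 6 lower), against 71.9% (37.4% and 34.5%). TPM gave 14 and 16, against 82.8% (14.6% and 68.2%), and 14 and 6 held on both (14.6% and 34.5%). The carriers' median differences were 0.14, 0.78 and 1.08 for liver against BAT, iWAT and eWAT as deposited, and -0.16, 0.26 and 0.07 as TPM.

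Among fat depots, BAT against iWAT called 22 of 40 (17 higher, 5 lower), where 50.1% of all genes were called (24.4% and 25.7%). TPM gave 13 and 9, against 55.4% (13.5% and 41.9%), and 13 and 5 held on both scales (13.5% and 25.7%). BAT against eWAT called 31 (24 higher, 7 lower), against 53% of all genes (25.3% and 27.8%). TPM gave 14 and 13, against 71.5% (9.05% and 62.5%), and 14 and 7 held on both (9.01% and 27.8%). The carriers' median for BAT against eWAT was 0.042 as TPM, beside -0.69 for all genes. EWAT against iWAT called 28 (6 higher, 22 lower), against 46.2% (21.4% and 24.8%). TPM gave 8 and 8, against 52.5% (42.9% and 9.58%), and 6 and 7 held on both (21.4% and 9.53%). Without eWAT vehicle libraries 1 and 2, liver against eWAT called 31 (25 higher, 6 lower), with 71.1% of all genes called. BAT against eWAT then called 32 (25 higher, 7 lower), with 51.7% of all genes called. Without the same libraries, eWAT against iWAT called 20 (5 higher, 15 lower), with 42.3% of all genes called. In auranofin libraries it called 3 (2 higher, 1 lower), with 10.6% of all genes called.

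Called above each of the other 3 tissues on both scales were 8 carriers in liver (Slc25a13, Slc25a15, Slc25a16, Slc25a21, Slc25a22, Slc25a23, Slc25a25 and Slc25a47), 8 in BAT (among them Slc25a11, Slc25a17, Slc25a20, Slc25a34, Slc25a35, Slc25a48 and Slc25a51), 1 in eWAT (Slc25a24) and 0 in iWAT. By the same rule 11.9%, 4.43%, 9.71% and 3.51% of all genes were called above in liver, BAT, eWAT and iWAT. As deposited the carriers' counts were 16, 9, 1 and 0, where 23.1%, 9.03%, 9.71% and 8.07% of all genes were called. Called below each of the other 3 on both scales were 5 in liver (among them Slc25a4, Slc25a24, Slc25a35 and Slc25a36), 1 in BAT (Slc25a10), 2 in eWAT (Slc25a20 and Slc25a33) and 1 in iWAT (Slc25a27), against 19.9%, 4.37%, 0.83% and 1.81% of all genes in liver, BAT, eWAT and iWAT. As deposited these counts were 5, 1, 12 and 2, against 19.9%, 5.84%, 7.57% and 5.01% of all genes. In whole tissue, fewer cells of a type and less RNA per cell cannot be told apart.

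The ADP/ATP carriers, which hand the ATP made by the respiratory chain to the cytosol, split by isoform. Slc25a4 had 2.95, 3.57, 3.04 and 1.48 FPKM in vehicle liver, against 205, 174, 191 and 169 in BAT, 56.6, 75.4, 87.4 and 91.2 in eWAT and 135, 118, 122 and 169.6 in iWAT. No liver library came near a fat library. The difference was -5.66 ± 0.19 for liver against BAT (adjusted p = 2.04e-13), -5.21 against iWAT and -4.40 against eWAT. Slc25a5 had 358 ± 30.7 FPKM in liver, 278 ± 27.5 in BAT, 149 ± 6.72 in eWAT and 255 ± 23.4 in iWAT. Its call in liver over iWAT (0.49) turned to -0.28 as TPM, and its call over BAT (0.37) was lost at -0.02. Slc25a4 over Slc25a5, a ratio within a library that no scaling changes, averaged 0.00764 in vehicle liver, 0.667 in BAT, 0.520 in eWAT and 0.533 in iWAT. Slc25a31 (ANT4), the isoform of germ cells, had at most 0.378 FPKM in any library.

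The phosphate carrier Slc25a3, which supplies phosphate for ATP synthesis, stood at 85.9 ± 4.39 FPKM in liver, 89.8 ± 9.82 in BAT, 52.99 ± 9.36 in eWAT and 84.7 ± 7.35 in iWAT with vehicle. Liver, BAT and iWAT were not called different as deposited (adjusted p = 0.715 for liver against BAT, 0.883 for liver against iWAT and 0.631 for BAT against iWAT), while eWAT was lower than each. As TPM liver was lower than BAT (-0.45, adjusted p = 0.0117), iWAT (-0.74, adjusted p = 0.000206) and eWAT (-0.49), and eWAT was called lower than none of them.

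Carriers of citrate and dicarboxylates had different peaks. Slc25a10, the dicarboxylate carrier that exchanges malate or succinate for phosphate, had 136, 140.4, 158 and 123 FPKM in vehicle liver, 11.2, 19.3, 17.6 and 13.4 in BAT, 39.04, 24.03, 95.1 and 100.2 in eWAT and 156, 191, 154 and 212 in iWAT. BAT was the lowest tissue, with a difference of -3.47 ± 0.35 against iWAT (adjusted p = 8.59e-07) and -1.80 against eWAT, and liver exceeded BAT by 3.12. In eWAT, libraries 1 and 2 were lower than libraries 3 and 4. The eWAT to iWAT difference was -1.67, or -0.85 without those libraries. Slc25a1 had 72.6, 93.4, 159 and 141 FPKM in eWAT, against 297, 391, 294 and 410.0 in iWAT, and the eWAT to iWAT difference was -1.62 ± 0.24 (adjusted p = 8.98e-05), or -1.19 without eWAT libraries 1 and 2. BAT (279.9 ± 81.4 FPKM) overlapped iWAT and was not called different as deposited (-0.34, adjusted p = 0.263). As TPM it was called lower than iWAT (-0.72, adjusted p = 0.0198). Slc25a11, the oxoglutarate/malate carrier of the malate-aspartate shuttle, was at 46.1 ± 2.03 FPKM in liver, 69.4 ± 7.42 in BAT, 27.1 ± 4.41 in eWAT and 38.8 ± 3.32 in iWAT, highest in BAT on both scales.

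The aspartate/glutamate carriers, which import the reducing power of NADH by the malate-aspartate shuttle, also split by isoform. Slc25a13 (citrin, the liver form that also serves the urea cycle) had 86.8, 80.3, 85.6 and 91.5 FPKM in vehicle liver, against 0.0592, 0.200, 0.135 and 0.243 in BAT, 5.02, 3.54, 1.62 and 2.13 in eWAT and 0.636, 0.447, 0.183 and 0.325 in iWAT. Liver lay far above every fat library (6.23 ± 0.19 against BAT, adjusted p = 8.47e-14, with 5.97 against iWAT and 4.49 against eWAT). EWAT exceeded iWAT by 1.48, with the highest values in the eWAT vehicle libraries richest in macrophage markers, and by 1.04 without them. Slc25a12 (aralar, the form of muscle and brain) was at 2.55 ± 0.123 FPKM in liver, 0.965 ± 0.541 in BAT, 2.16 ± 0.253 in eWAT and 1.25 ± 0.537 in iWAT. In BAT and iWAT it was highest in the libraries with the most skeletal muscle RNA: the 11 muscle markers summed to 2.88, 3154, 3.25 and 1297 FPKM in BAT auranofin libraries, where Slc25a12 was 0.535, 3.95, 0.507 and 1.78, and to 62.8, 3.14, 275 and 775 in BAT vehicle libraries, where it was 0.623, 0.757, 0.707 and 1.77. In iWAT the sums were 27.00, 22.7, 13.3 and 975 with auranofin and 34.6, 31.2, 12.6 and 1670.2 with vehicle, beside 1.14, 0.961, 1.27 and 2.41 and 1.09, 1.08, 0.813 and 2.04 FPKM of Slc25a12. The part of muscle RNA in the Slc25a12 values was not tested.

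**Figure D2:**
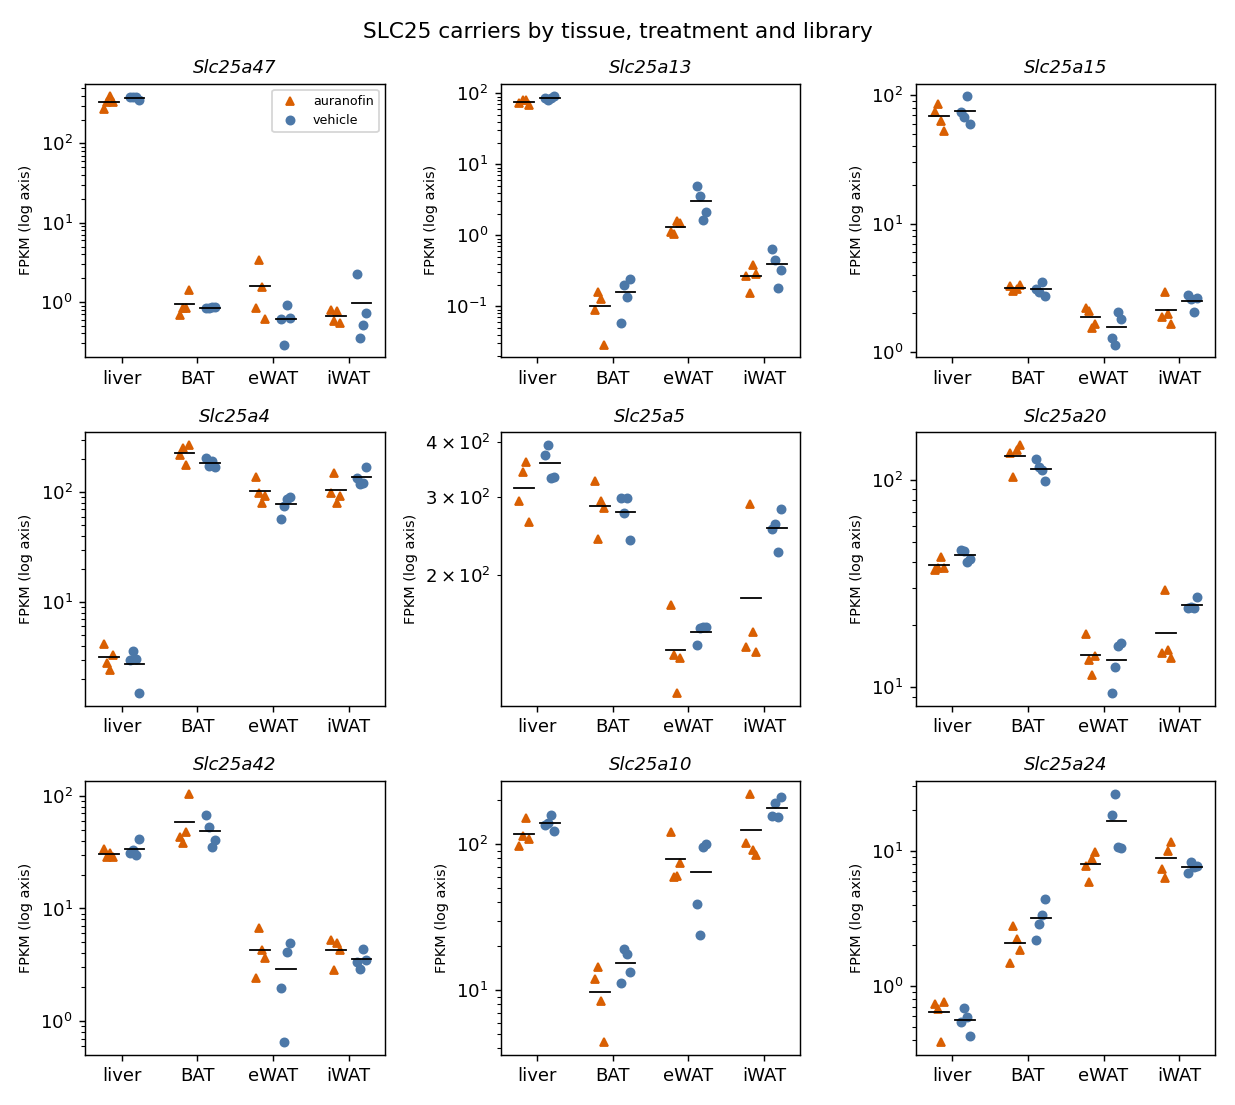
FPKM (log axes, scales differ between panels) of 9 carriers in each library, by tissue, with auranofin libraries (triangles) left of vehicle libraries (circles) and a bar at each mean of 4. Liver is separate from all fat libraries for Slc25a47, Slc25a13, Slc25a15 and Slc25a4, BAT is highest for Slc25a20 and lowest for Slc25a10, and the 2 upper eWAT vehicle points of Slc25a24 are libraries 1 and 2.

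Other carriers of amino acids were highest in liver. Slc25a15, the ornithine/citrulline carrier of the urea cycle, had 73.6, 67.9, 98.8 and 60.1 FPKM there, against 2.74 to 3.51 in BAT, 1.14 to 2.05 in eWAT and 2.07 to 2.78 in iWAT (4.20 ± 0.15, 4.88 and 4.42 for liver against each, adjusted p = 3.28e-13 against BAT). Its relative Slc25a2 had at most 0.769 FPKM in any library. Slc25a22, the main glutamate carrier, had 65.6 ± 13.9 FPKM in liver, 15.4 ± 1.57 in BAT, 5.94 ± 2.92 in eWAT and 10.7 ± 0.448 in iWAT, and liver exceeded eWAT by 3.37, or 2.85 without eWAT libraries 1 and 2. Its isoform Slc25a18 was highest in liver vehicle libraries, at 0.463 ± 0.263 FPKM. Slc25a21, the oxodicarboxylate carrier of lysine and tryptophan breakdown, had 4.301, 5.35, 3.91 and 4.34 FPKM in liver, while 0 to 0.0292, 0.0171 to 0.0691 and 0.0110 to 0.0304 were seen in BAT, eWAT and iWAT. Slc25a29, a carrier of basic amino acids, was called higher in liver than in each fat depot as deposited (1.56 FPKM, against 0.670, 0.657 and 0.696 in BAT, eWAT and iWAT) but in none of the 3 pairs as TPM. Slc25a44, which in mice brings branched-chain amino acids into brown fat mitochondria, had 31.6 ± 3.41 FPKM in liver and 29.7 ± 3.14 in BAT, not called different (adjusted p = 0.645), and more in BAT than in iWAT (0.94) and eWAT (1.28) on both scales.

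Slc25a20, which carries acylcarnitines in for fatty acid oxidation, had 46.03, 45.5, 40.1 and 41.3 FPKM in vehicle liver and 126, 115, 111 and 98.6 in BAT, against 9.35, 12.5, 15.9 and 16.3 in eWAT and 24.03, 24.5, 24.1 and 27.4 in iWAT. BAT stood above every other library, by 2.99 over eWAT (2.72 without eWAT libraries 1 and 2) and 2.12 ± 0.14 over iWAT (adjusted p = 9.25e-09), and liver lay -1.36 against BAT. Of the 4 enzymes of the same carnitine shuttle (Cpt1a, Cpt1b, Cpt2 and Crat), 3 were higher and 1 lower in BAT than in iWAT, and likewise against eWAT. Slc25a51, the NAD carrier, had 24.4 ± 7.04 FPKM in liver and 98.04 ± 12.7 in BAT, against 19.7 ± 1.47 in eWAT and 28.5 ± 1.52 in iWAT (1.74 ± 0.16 for BAT against iWAT, adjusted p = 3.65e-07).

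Slc25a42, a carrier of coenzyme A, was high in liver and BAT, with 33.9 ± 5.27 FPKM in liver and 48.8 ± 14.1 in BAT, not called different (adjusted p = 0.191), against 2.92 ± 1.95 in eWAT and 3.54 ± 0.630 in iWAT. BAT exceeded eWAT by 3.79, or 3.13 without eWAT libraries 1 and 2. Slc25a17, a peroxisomal carrier of coenzyme A and related cofactors, was highest in BAT (37.4 ± 3.64 FPKM) and called over each other tissue on both scales, but its order between liver and white fat turned with the scale (0.64 and -0.52 for liver against eWAT as deposited and as TPM). Slc25a32, which carries FAD, was called higher in BAT than in iWAT (1.17) and eWAT (1.06) on both scales. Slc25a26, the S-adenosylmethionine carrier, was lower in liver (2.81 ± 0.464 FPKM) than in BAT (5.64 ± 0.877) (log2 difference -0.80), a call held on both scales. Slc25a16 (21.4 ± 0.544 FPKM in liver, 9.34 ± 0.681 in BAT, 6.59 ± 1.28 in eWAT and 9.16 ± 0.599 in iWAT) was highest in liver, and its BAT over eWAT call (0.46) turned to -0.28 as TPM.

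Carriers of iron, glycine and glutathione differed among themselves. Slc25a37 (mitoferrin 1), which brings iron in for haem and iron-sulfur clusters, had 11.2, 11.4, 9.42 and 9.61 FPKM in liver, against 3.16, 3.12, 2.89 and 3.05 in BAT, 9.14, 4.58, 5.27 and 4.99 in eWAT and 1.097, 1.63, 1.73 and 2.36 in iWAT. Liver against eWAT was 0.74 as deposited, a call, and -0.34 as TPM, not called. EWAT exceeded iWAT by 1.35 ± 0.17 (adjusted p = 1.99e-05) in vehicle libraries and by 0.36 in auranofin libraries, where the call was lost. Its relative Slc25a28 (mitoferrin 2) stood at 16.1 ± 1.78 FPKM in liver, 26.6 ± 3.72 in BAT, 16.3 ± 4.42 in eWAT and 22.8 ± 3.05 in iWAT, and liver was lower than BAT and iWAT on both scales. Slc25a38, the glycine carrier of haem synthesis, had 13.5 ± 1.28 FPKM in liver and 6.59 ± 1.21 in BAT, a call (0.94) lost as TPM. Slc25a39, a glutathione importer, had 191 ± 17.3 FPKM in liver and 143 ± 26.1 in BAT, against 39.3 ± 13.4 in eWAT and 73.7 ± 6.201 in iWAT, and both tissues were called over both white depots on both scales. Its homologue Slc25a40 ran lowest in liver (0.635 ± 0.0726 FPKM) and highest in iWAT (1.34 ± 0.178), called as lower in liver than in each white depot on both scales.

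The calcium-regulated ATP-Mg/phosphate carriers, which set the adenine nucleotide pool of the matrix, divided between liver and white fat. Slc25a23 had 59.7 ± 3.49 FPKM in liver, 29.7 ± 1.45 in BAT, 8.81 ± 4.31 in eWAT and 16.4 ± 2.89 in iWAT, and Slc25a25 29.9 ± 10.8, 4.24 ± 1.07, 5.41 ± 1.83 and 10.1 ± 1.92 in the same tissues. Both were called highest in liver on both scales. Slc25a24 ran the other way, with 0.549, 0.688, 0.593 and 0.426 FPKM in liver, against 2.18, 2.87, 3.35 and 4.37 in BAT, 18.3, 26.2, 10.7 and 10.5 in eWAT and 6.82, 8.26, 7.57 and 7.72 in iWAT. Every eWAT vehicle library exceeded every other vehicle library. The eWAT to iWAT difference of 0.92 ± 0.23 (adjusted p = 0.00391) was 0.43 without eWAT libraries 1 and 2, and -0.11 in auranofin libraries, where it was not called. Its level and the macrophage marker sum were highest together in eWAT vehicle libraries 1 and 2, and the part of macrophages in it was not tested. Slc25a41, a further member of this subgroup, had reads in 1 of 32 libraries.

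Slc25a47 had 382, 387, 380.1 and 354 FPKM in vehicle liver, against 0.8286, 0.846, 0.858 and 0.857 in BAT, 0.614, 0.290, 0.907 and 0.626 in eWAT and 2.25, 0.356, 0.505 and 0.727 in iWAT (7.67 ± 0.20, 7.88 and 7.68 for liver against each, adjusted p = 9.52e-15 against BAT). Within fat it was highest where hepatocyte markers were: 3.42 and 1.53 FPKM in eWAT auranofin libraries 2 and 3, whose 8 hepatocyte markers summed to 520.4 and 177 FPKM, and 2.25 in iWAT vehicle library 1, where they summed to 392. The other white fat libraries had hepatocyte sums up to 58.1 FPKM and Slc25a47 up to 0.907. In BAT vehicle libraries the hepatocyte sums were 0.543 to 2.10 FPKM, beside 0.8286 to 0.858 of Slc25a47. In eWAT vehicle libraries they were 3.98 to 37.1 FPKM, beside 0.290 to 0.907. The part of liver RNA in the Slc25a47 values was not tested.

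Slc25a48, reported as a choline carrier, had 5.898, 4.17, 8.49 and 5.07 FPKM in liver and 16.8, 13.4, 11.8 and 11.3 in BAT, against at most 0.114 in eWAT and 0.361 in iWAT (3.46 ± 0.15 for BAT against iWAT, adjusted p = 1.44e-10, and 3.71 against eWAT). Slc25a34 had 6.09 ± 1.69 FPKM in liver and 11.9 ± 5.46 in BAT, against 0.271 ± 0.116 and 0.396 ± 0.396 in eWAT and iWAT. Slc25a35 had 0.471, 0.595, 0.398 and 0.472 FPKM in liver, against 37.2, 32.8, 34.5 and 31.4 in BAT, 2.63, 3.61, 6.84 and 6.76 in eWAT and 12.2, 12.6, 13.3 and 10.3 in iWAT (-4.56 ± 0.19 for liver against BAT, adjusted p = 5.13e-12). Its exons share 31.3% of their bases with Rangrf on the other strand, and the kit keeps no strand, so reads in the shared stretch cannot be assigned to either gene. The eWAT to iWAT difference was -1.21, or -0.74 without eWAT libraries 1 and 2.

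The pyrimidine nucleotide carriers differed from each other. Slc25a33 had 14.8 ± 3.16 FPKM in liver, 10.8 ± 1.96 in BAT, 2.52 ± 0.618 in eWAT and 6.35 ± 0.986 in iWAT, lowest in eWAT, and 14.9% of its exon bases are shared with the antisense gene Gm13068. Slc25a36 was at 0.440, 0.419, 0.492 and 0.515 FPKM in liver, against 6.37 ± 0.318 in BAT, 5.48 ± 0.566 in eWAT and 5.42 ± 0.477 in iWAT (-2.33 ± 0.08 for liver against BAT, adjusted p = 3.80e-13). Of the carriers named as relatives of the uncoupling proteins, Slc25a27 was highest in liver (1.502 ± 0.302 FPKM) and lowest in iWAT (0.219 ± 0.0742), and liver against eWAT was 0.31 as deposited and -0.48 as TPM. Slc25a30 spread from 6.69 to 42.3 FPKM within vehicle liver, and Slc25a14 lay between 1.21 and 1.87 in the group means. Slc25a45 was at 15.9 ± 1.105 FPKM in liver, 1.72 ± 0.581 in BAT, 6.73 ± 2.65 in eWAT and 2.45 ± 0.488 in iWAT, and eWAT exceeded iWAT by 1.12 and BAT lay -1.47 against eWAT, both held on both scales. Slc25a46, an outer membrane member of the family tied to mitochondrial shape, was highest in BAT at 22.6 ± 1.75 FPKM, a call over white fat lost as TPM. Slc25a53 averaged 0.483 ± 0.106 FPKM in BAT with vehicle and less in the other tissues.

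Outside the 47, the family genes under other names had 4 of 5 called in liver against BAT, all lower, led by Ucp1, which had at most 0.441 FPKM in any white fat library. The pyruvate carrier (Mpc1 and Mpc2), which belongs to another family, was called higher in BAT than in each other tissue as deposited. Mpc1 had 60.4 ± 9.43 FPKM in liver, 140.0 ± 49.7 in BAT, 23.00 ± 5.76 in eWAT and 49.5 ± 1.47 in iWAT. All 5 urea cycle enzymes listed were higher in liver than in each fat depot (median 8.90 over BAT, 7.81 over eWAT and 6.92 over iWAT), beside Slc25a13 and Slc25a15. Of 7 genes of branched-chain amino acid breakdown, 6 were higher in BAT than in iWAT and 6 than in eWAT, beside Slc25a44. Of all genes, 24.4% and 25.3% were called higher in the same pairs. In liver against BAT, 1 of the 7 was higher and 4 were lower, while Slc25a44 was not called different. These counts are as deposited.

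With auranofin, no carrier was called in any tissue by limma: 0 of 39 in liver (0% of all genes), 0 of 38 in BAT (0.023%), 0 of 38 in eWAT (0%) and 0 of 36 in iWAT (0%). At an unadjusted p under 0.05 there were 3 of 39 in liver (6.04% of all genes), 4 of 38 in BAT (11.2%), 7 of 38 in eWAT (11.4%) and 6 of 36 in iWAT (22%). With voom on reads rebuilt from the FPKM, 0 carriers were called in each tissue, and 0 genes in liver, eWAT and iWAT and 4 in BAT. Median changes of the carriers tested were -0.07 in liver, 0.11 in BAT, 0.14 in eWAT and -0.10 in iWAT, beside -0.008, 0.022, 0.0029 and -0.017 for all genes. As TPM the carriers' medians were -0.078, 0.0022, -0.00062 and 0.18 in liver, BAT, eWAT and iWAT, beside -0.018, -0.097, -0.14 and 0.23 for all genes. The sign in iWAT thus turned with the scale, and the medians in BAT and eWAT moved close to 0. On both scales the carriers' median lay above that of all genes in BAT and eWAT and below it in liver and iWAT.

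**Figure D3:**
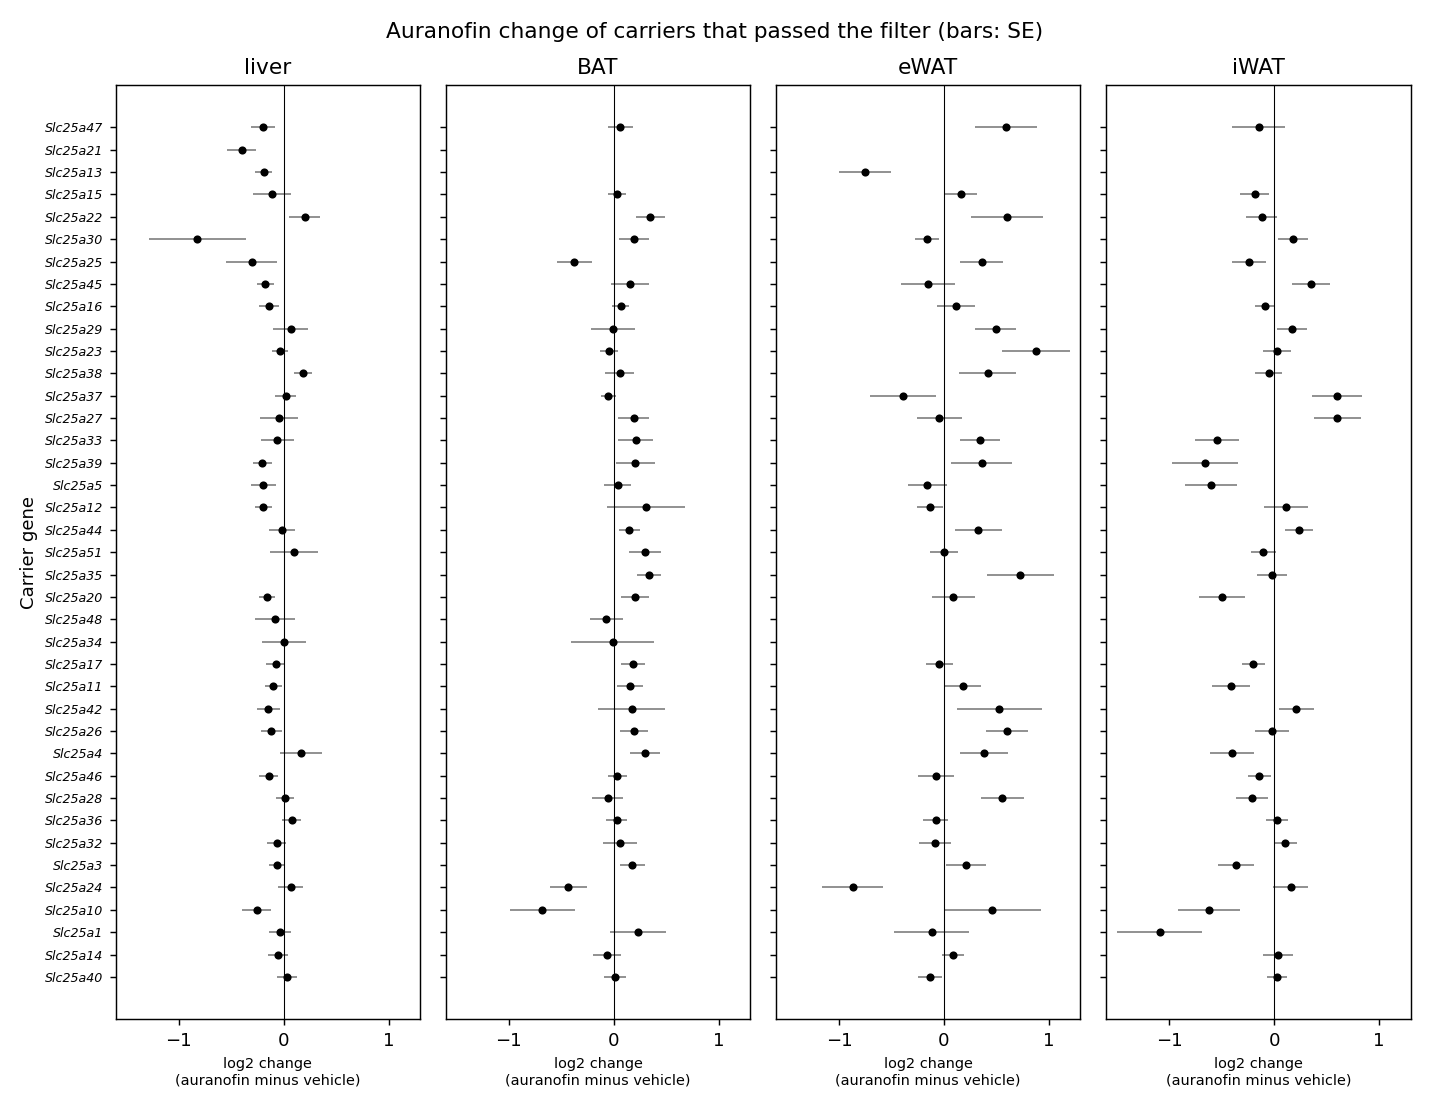
Change with auranofin (auranofin minus vehicle, log2(FPKM + 1)) of carriers that passed the filter, by tissue, with SE bars (n = 4 libraries each). None is called. In liver most points lie below 0, Slc25a30 lowest (-0.82), while eWAT and iWAT spread to about 1 unit, Slc25a1 in iWAT lying lowest (-1.09) and Slc25a23 in eWAT highest (0.87).

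In liver, 28 of 39 carriers had a difference below 0, against 52.3% of all genes. The counts were 28 of 38 above 0 in BAT (55% of all genes), 23 of 38 above 0 in eWAT (50.4%) and 22 of 36 below 0 in iWAT (52.2%). Slc25a30, a relative of the uncoupling proteins, had the lowest difference, -0.82, with 7.43, 6.78, 9.78 and 14.97 FPKM with auranofin, against 20.1, 14.6, 6.69 and 42.3 with vehicle, a spread in which the groups overlapped. Slc25a21 had 2.86, 3.39, 4.14 and 2.36 FPKM with auranofin, against 4.301, 5.35, 3.91 and 4.34 with vehicle (-0.40 ± 0.14, adjusted p = 0.790). 1 vehicle library fell below the highest auranofin library, so the groups overlapped. Slc25a12 had 1.89, 2.17, 2.37 and 1.998 FPKM with auranofin, against 2.38, 2.66, 2.63 and 2.54 with vehicle (-0.19), and Slc25a39 148, 173, 175 and 168 against 180.3, 191, 216 and 178 (-0.20). These were the 2 carriers whose liver groups did not overlap, both lower, where 2.2% of all genes did so. Slc25a13 differed by -0.19, Slc25a38 by 0.18, Slc25a22 by 0.20 and Slc25a4 by 0.17, none of them passing. The Slc25a4 value was -0.02 without vehicle library 4. Slc25a47 had 331 ± 51.7 FPKM with auranofin and 376 ± 14.7 with vehicle (-0.20).

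In BAT, Slc25a35 had 53.2, 39.6, 39.2 and 41.97 FPKM with auranofin, against 37.2, 32.8, 34.5 and 31.4 with vehicle (0.34 ± 0.11, adjusted p = 0.341), the only BAT carrier tested without overlap between the groups (2.28% of all genes were higher without overlap). Slc25a22 had 19.9, 15.3, 20.6 and 24.3 against 17.1, 14.6, 16.1 and 13.6 FPKM (0.35), and Slc25a4 219, 250.1, 178 and 269 against 205, 174, 191 and 169 (0.29). Slc25a4 was highest in auranofin libraries 2 and 4, where the 11 skeletal muscle markers summed to 3154 and 1297 FPKM, against 2.88 and 3.25 in auranofin libraries 1 and 3. With vehicle the markers summed to 62.8, 3.14, 275 and 775 FPKM, and vehicle library 4 had the lowest Slc25a4 (169). Auranofin library 1, at 2.88, had more Slc25a4 (219) than every vehicle library. All 11 muscle markers had a difference above 0 in BAT (median 0.43) and 0 were called. The Slc25a4 to Slc25a5 ratio was 0.671, 1.04, 0.606 and 0.947 in the auranofin libraries, against 0.688, 0.632, 0.641 and 0.705 with vehicle, and the part of muscle RNA in Slc25a4 was not tested. On the lower side, Slc25a10 had 11.95, 14.3, 8.37 and 4.395 FPKM with auranofin, against 11.2, 19.3, 17.6 and 13.4 with vehicle (-0.68), the lowest value being in auranofin library 4. Slc25a24 had 2.09 ± 0.541 against 3.19 ± 0.919 FPKM (-0.43) and Slc25a25 3.01 ± 0.619 against 4.24 ± 1.07 (-0.37). None of these 6 passed. Macrophage markers summed to 58.4, 143, 83.2 and 68.1 FPKM with auranofin and 119, 244, 145 and 186 with vehicle in the same libraries, lower in auranofin alongside Slc25a24, and their part in it was not tested. Slc25a20 had 131 ± 19.5 FPKM with auranofin and 113 ± 11.1 with vehicle, and Slc25a44 32.9 ± 2.63 and 29.7 ± 3.14. Auranofin library 4 held 104.3 FPKM of Slc25a42 and 23.0 of Slc25a34, against 38.0 to 47.5 and 7.80 to 9.52 in the other 3 auranofin libraries.

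In eWAT, 4 carriers did not overlap between groups, 2 higher (3% of all genes) and 2 lower (3.95%), and none passed. Slc25a26 had 4.78, 4.42, 3.34 and 3.28 FPKM with auranofin, against 1.84, 1.39, 2.99 and 3.05 with vehicle (0.60 ± 0.20, adjusted p = 0.429). Slc25a28 had 22.7, 25.7, 24.4 and 22.2 against 16.01, 10.1, 19.4 and 19.6 (0.56). Slc25a13 had 1.13, 1.03, 1.59 and 1.51 against 5.02, 3.54, 1.62 and 2.13 (-0.75), and Slc25a24 7.68, 5.89, 8.68 and 9.83 against 18.3, 26.2, 10.7 and 10.5 (-0.87). In each of these the vehicle values farthest from the auranofin ones were in libraries 1 and 2. Without those, the differences were 0.29 for Slc25a26, 0.27 for Slc25a28, -0.31 for Slc25a13 and -0.38 for Slc25a24. Slc25a23 had 18.4, 19.9, 12.5 and 12.9 FPKM with auranofin, against 4.27, 6.05, 11.8 and 13.1 with vehicle (0.87, and 0.30 without them). Slc25a30 differed by -0.16.

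Cell type markers are given beside these eWAT values. The 8 adipocyte markers summed to 11317, 13016, 6708 and 6961 FPKM with auranofin and 3054, 4863, 6459 and 7121 with vehicle, and the 8 macrophage markers to 1627, 618, 1225 and 1634 and 3194, 2965, 1282 and 1322, with none of either list at 0. The medians were 0.82 for adipocyte markers (7 of 8 above 0) and -0.79 for macrophage markers (8 of 8 below 0), and 0 of either list were called. Their part in the carrier differences was not tested. The Slc25a4 to Slc25a5 ratio was 0.800, 0.751, 0.740 and 0.716 in eWAT with auranofin, against 0.409, 0.498, 0.574 and 0.600 with vehicle, so every auranofin library lay above every vehicle library. It was picked after its values were seen and carries no test. Averages of the same ratio were 0.0104 and 0.00764 in liver, 0.816 and 0.667 in BAT, and 0.616 and 0.533 in iWAT, auranofin before vehicle, with overlapping libraries in all 3.

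**Figure D4:**
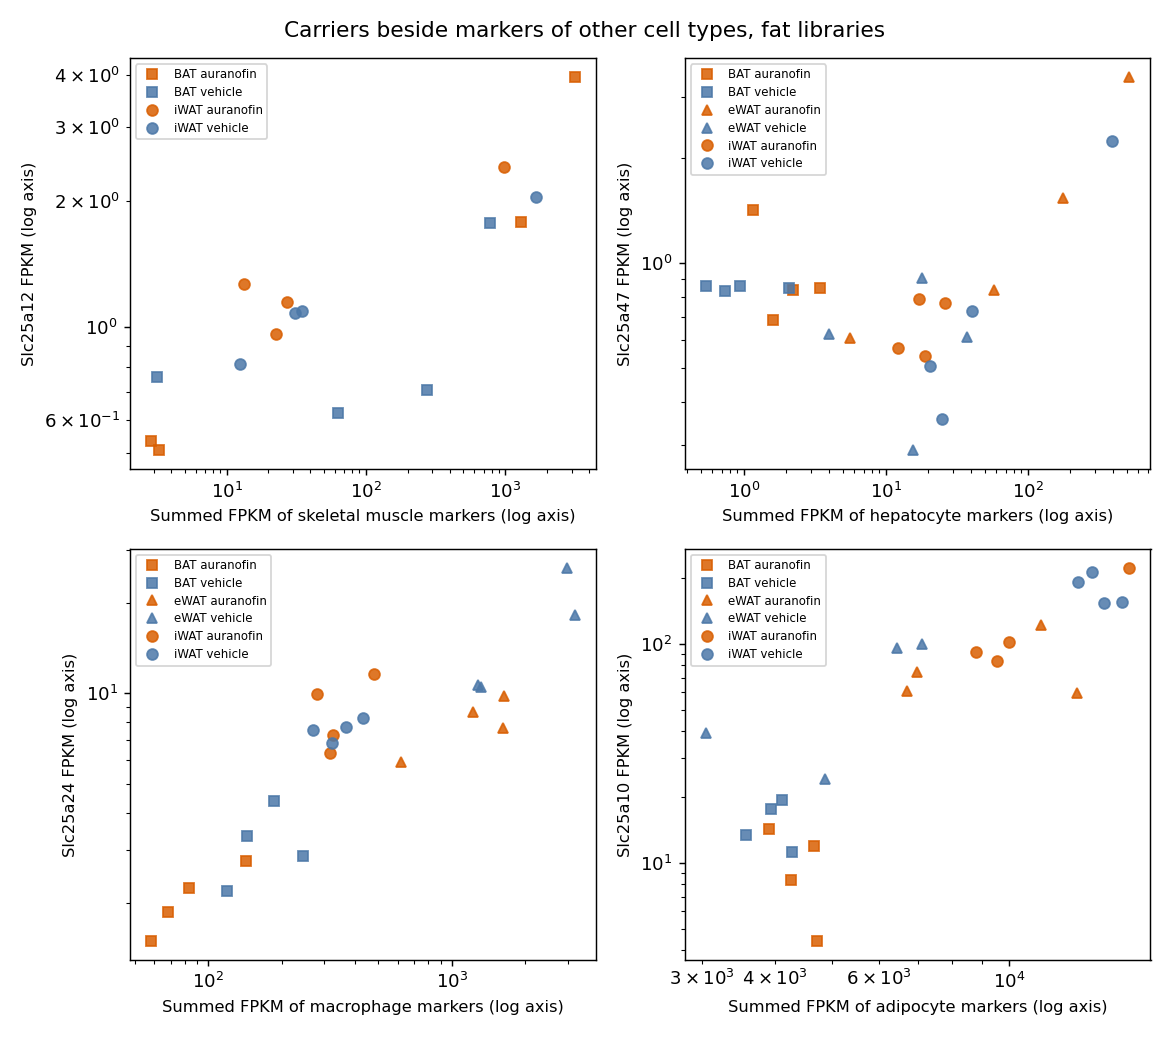
FPKM of 4 carriers against the summed FPKM of a marker list (both axes log), 1 point per fat library, auranofin in orange and vehicle in blue. Slc25a12 is highest in libraries with much skeletal muscle marker RNA (BAT auranofin 2 at 3.95), Slc25a47 in those with hepatocyte markers (eWAT auranofin 2 at 3.42), and Slc25a24 in eWAT vehicle libraries 1 and 2 with the most macrophage markers. Slc25a10 is low in BAT, where adipocyte markers summed to 3909 to 4713 FPKM with auranofin and 3570 to 4270 with vehicle. In eWAT, vehicle library 1 had a lower sum (3054) and more Slc25a10 than BAT. No relation to markers was tested.

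In iWAT, Slc25a1 had 119.6, 416, 129 and 105 FPKM with auranofin, against 297, 391, 294 and 410.0 with vehicle (-1.09 ± 0.40, adjusted p = 0.204). Slc25a5 had 137, 289, 148 and 134 against 254, 261, 225 and 282 (-0.60), and Slc25a33 3.45, 6.86, 2.97 and 3.49 against 6.9999, 6.86, 4.88 and 6.64 (-0.54). The size of these differences depended on the processing. Over 22 alternatives each, Slc25a1 ranged from -1.54 to -0.64, Slc25a5 from -0.86 to -0.10 and Slc25a33 from -0.80 to -0.34. In all 3 genes auranofin library 2 was the highest auranofin library, and the other 3 auranofin libraries were below every vehicle library. On the higher side, Slc25a27 had 1.24, 0.148, 0.908 and 1.38 against 0.218, 0.121, 0.236 and 0.301 FPKM (0.60), Slc25a37 3.54, 1.49, 3.52 and 4.24 against 1.097, 1.63, 1.73 and 2.36 (0.60) and Slc25a45 3.97, 2.06, 3.69 and 4.04 against 1.76, 2.78, 2.43 and 2.81 (0.35). Here library 2 was the lowest auranofin library each time. The groups overlapped in all 36 carriers tested in iWAT (2.77% of all genes were higher and 2.41% lower without overlap).

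Without auranofin library 2, limma called 16 of the 36 carriers in iWAT, 4 higher and 12 lower, where 36.4% of all genes were called (15.1% higher, 21.3% lower). Each library was left out in turn, but this one was singled out after its values were seen to lie near vehicle. The calls without it are therefore descriptive and are no test of auranofin. The 4 higher were Slc25a27, Slc25a37, Slc25a45 and Slc25a42. Among the 12 lower were Slc25a1 (-1.54 ± 0.15, adjusted p = 0.00109), Slc25a39 (-1.01), Slc25a10 (-0.93), Slc25a5 (-0.86), Slc25a33 (-0.76), Slc25a20 (-0.74), Slc25a11, Slc25a4, Slc25a3, Slc25a15 and Slc25a17. The 12 include carriers of ADP/ATP, phosphate, citrate and dicarboxylates. These calls are as deposited and were not repeated as TPM. With all libraries, the median of all genes in iWAT moved to 0.23 on that scale. Whether the smaller differences, such as -0.31 for Slc25a15 and -0.29 for Slc25a17, keep their sign there was not tested. The remaining auranofin libraries also had the low short-gene index given above (-0.16, -0.36 and -0.36, against 0.032 to 0.30 with vehicle) and lower adipocyte marker sums (9990.2, 8795 and 9548 FPKM, beside 16002 in the library left out, and 13102 to 15529 with vehicle). Removal of a length trend was an alternative for the fit of all libraries. The part of either in the calls without library 2 was not tested. Exon lengths of the 4 higher were 2650 bases for Slc25a45, 3935 for Slc25a27, 5996 for Slc25a42 and 6021 for Slc25a37. Of the lower carriers named, Slc25a5 (1646), Slc25a33 (1887), Slc25a11 (2120), Slc25a1 (2164), Slc25a4 (2353), Slc25a39 (2756), Slc25a17 (2847) and Slc25a10 (3455) were shorter than 4000 bases, while Slc25a20 (4844), Slc25a3 (5550) and Slc25a15 (5629) were longer. The lengths of the higher and lower carriers overlapped. With all libraries, the median iWAT difference of all genes was -0.30 at 1000 to 2000 bases and -0.094 at 2000 to 4000. It was 0.039 at 4000 to 6000 bases and 0.086 above 6000.

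Whether the auranofin difference itself varied between tissues was tested as an interaction, and no carrier passed in any of 4. On the TPM scale the median of all genes moved to -0.40 for eWAT minus iWAT and 0.37 for iWAT minus BAT. For eWAT minus iWAT, 12 of 37 carriers had an unadjusted p under 0.05 (23.5% of all genes), led by Slc25a33 (0.89 ± 0.30) and Slc25a28 (0.77), both at adjusted p = 0.177. For iWAT minus BAT there were 13 of 38 (23.1%), among them Slc25a33 (-0.75, adjusted p = 0.151). Without iWAT auranofin library 2 these interactions called 12 and 15 carriers, where 14.8% and 27.4% of all genes were called. That omission was singled out after its values were seen. For eWAT minus BAT there were 4 of 39 (5.84%), with Slc25a25 at 0.73 and Slc25a23 at 0.92, adjusted p = 0.777 each. For liver minus the mean of the 3 fat depots there were 3 of 40 (6.04%), with Slc25a21 at -0.40 ± 0.11 (adjusted p = 0.416) and Slc25a30 at -0.89. Without liver auranofin library 3, Slc25a21 was the 1 carrier called, with 0.0694% of all genes. That library had the highest Slc25a21 of the liver auranofin libraries, within the vehicle range. Leaving out each library in turn gave 0 to 1 carriers here, so this call is descriptive and no test of auranofin.

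The genes that work with these carriers showed 0 calls with auranofin in every list and tissue. Mpc2 of the pyruvate carrier had 18.9, 48.3, 15.9 and 14.8 FPKM in iWAT with auranofin, against 43.8, 41.7, 34.2 and 46.2 with vehicle (log2 difference -0.90, adjusted p = 0.204), again with library 2 apart. Median differences in liver, BAT, eWAT and iWAT were 0.13, 0.22, 0.53 and -0.55 for urea cycle enzymes tested, -0.18, 0.16, 0.23 and -0.18 for carnitine shuttle enzymes, and -0.05, 0.12, 0.35 and -0.22 for branched-chain amino acid breakdown. In eWAT, Cps1 and Otc of the urea cycle had 0.304, 3.96, 1.43 and 0.0168 and 0.0385, 0.732, 0.311 and 0.0220 FPKM with auranofin, highest in the libraries 2 and 3 that held hepatocyte markers. Sideroflexins (0.05, -0.05, 0.09 and 0.06) and inner membrane ABC transporters (-0.07, 0.03, 0.10 and -0.02) stayed nearer to 0, outer membrane channels were at -0.08, 0.13, -0.23 and -0.39, calcium uniporter and exchanger genes at -0.09, 0.01, -0.02 and -0.20, and malate-aspartate shuttle enzymes at -0.09, 0.11, 0.11 and -0.30.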

How the data were processed

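Total RNA of 4 tissues was sequenced with a kit that keeps no strand, per the labels' protocols. STAR 2.6.1d, featureCounts 1.5.0-p3, DESeq2 1.20.0, CASAVA and the build mm10 are named in the submitters' processing notes, with no role or order given. The deposited values are FPKM per gene computed by the authors, and they imply library sizes of 10559760 to 24013795. Whole reads could be rebuilt from the FPKM (100% of values within 0.1 read), so voom on those reads was an alternative.

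Differences of log2(FPKM + 1) were tested with limma 3.58.1 (R 4.3.3, trended variance) on genes with a mean of at least 0.5 FPKM over the libraries of a fit, with Benjamini-Hochberg adjustment over all genes tested. Each tissue was fitted alone for auranofin against vehicle, the 16 vehicle libraries together for the 6 tissue pairs, and interactions across tissues. The method was tested on simulated data. The carriers and gene lists were chosen with earlier results of these data known. Named carriers were 18 shown in every tissue by role, up to 5 per direction and tissue pair by size among calls without overlap, 3 per direction by p for auranofin and 2 per interaction. Others were named after their values were seen, and 1 carrier, counted throughout, is not reported here. Alternatives were pseudocount 0.1, no filter or a filter of 2 FPKM, TPM, quantile scaling, quality weights, no trend, voom, protein-coding genes alone, a replicate block, other sets of libraries, a threshold of 0.1, removal of a length trend and leaving out libraries. Leaving out eWAT vehicle libraries 1 and 2 in the tissue pairs was chosen after seeing the data. Among libraries left out in turn, iWAT auranofin library 2 was singled out after seeing the data. Promoters came from RefSeq (GRCm38.p6) and gene overlaps from GENCODE M21. Python 3.11.15 with matplotlib 3.10.9 made the plots.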

Additional observations from a re-analysis of the deposited data

Results flagged for a closer look

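In 24 of 260 groups of 4 libraries (9.23%) over 35 carriers, 1 library lay so far from the other 3 that the gap, as a share of the whole range, exceeded Dixon's 95% critical value. Chance gives about 1 in 20 if the groups are independent. These groups share the same 32 libraries, and several of the 24 came from the same library. The 9.23% can therefore not be set against that rate. Of the 24, 16 were in auranofin and 8 in vehicle libraries, which for the same reason is no test of auranofin.

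IWAT auranofin library 2 was far above the other auranofin iWAT libraries in 6 carriers: Slc25a1 at 416 FPKM, Slc25a5 at 289, Slc25a10 at 222, Slc25a20 at 29.5, Slc25a33 at 6.86 and Slc25a39 at 97.3. EWAT auranofin library 1 was low in Slc25a27 (0.208 FPKM) and Slc25a37 (1.69) and high in Slc25a39 (73.4). BAT auranofin library 4 was high in Slc25a11 (92.9 FPKM), Slc25a34 (23.0) and Slc25a42 (104.3), and BAT auranofin library 3 in Slc25a37 (3.14) and Slc25a44 (36.9). Liver auranofin library 3 was high in Slc25a20 (42.5 FPKM) and eWAT auranofin library 4 in Slc25a25 (8.10).

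Among vehicle libraries, eWAT library 1 was low in Slc25a5 (138 FPKM) and high in Slc25a37 (9.14). BAT library 4 was high in Slc25a12 (1.77 FPKM) and iWAT library 4 in Slc25a20 (27.4), and both held skeletal muscle marker RNA (775 and 1670.2 FPKM). With auranofin, iWAT library 4 held 975 FPKM of these markers, and its Slc25a20 lay between 13.9 and 15.2. The part of muscle RNA was not tested. IWAT library 3 was high in Slc25a30 (6.54 FPKM) and low in Slc25a33 (4.88). Liver library 1 was high in Slc25a25 (45.9 FPKM) and liver library 2 low in Slc25a23 (54.5).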

How the results depend on the processing

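The 60 tissue differences with the largest called values of each pair were picked by size among calls without overlap. How well they held therefore does not speak for smaller differences. They kept direction and call in 1278 of 1287 alternatives. The exceptions were all eWAT comparisons in auranofin libraries: 8 calls were lost, and Slc25a24 in eWAT against iWAT turned to -0.11. Over all 40 carriers and 6 pairs, the TPM scale lost 41 calls, gained 19, reversed 7 that were called on both scales and turned 7 called as deposited to the other sign without a call. EWAT against iWAT called 28 carriers, against 16 (8 higher, 8 lower) as TPM and 3 in auranofin libraries (46.2%, 52.5% and 10.6% of all genes). For auranofin, 730 of 759 alternatives of 32 named values kept direction and side of the threshold, 28 passed it, and Slc25a4 in liver ranged over -0.0198 (without vehicle library 4) to 0.275 with each library left out. Counts of carriers in iWAT were 17 with quality weights (46.3% of all genes called) and 1 in 1 fit of all libraries (5.48%), and in eWAT 6 in that fit (9.24%). With quality weights the interactions called 13 (eWAT minus iWAT, 29.9% of all genes), 16 (iWAT minus BAT, 33%) and 1 (liver minus fat, 0.284%).

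Leaving out each library gave 0 to 16 carriers in iWAT (16 without auranofin library 2) and 0 to 0 in liver, BAT and eWAT. Interactions ranged over 0 to 12 for eWAT minus iWAT, 0 to 15 for iWAT minus BAT, 0 to 0 for eWAT minus BAT and 0 to 1 for liver minus fat. Tissue pairs ranged over 31 to 32 for liver against BAT, 33 to 34 against eWAT, 32 to 36 against iWAT, 31 to 33 for BAT against eWAT, 21 to 23 against iWAT and 23 to 28 for eWAT against iWAT. No comparison had correlations over 0.1 between same-numbered libraries for every number, so libraries were not paired in the main fits. Some shared deviation is not excluded. In iWAT, auranofin and vehicle libraries 1 to 4 had 0.0695, 0.161, 0.279 and 0.397, against a mean of -0.0758 for different numbers. A replicate block called 0 carriers for auranofin and interactions, and 32, 34, 34, 32, 22 and 28 for liver against BAT, eWAT and iWAT, BAT against eWAT and iWAT, and eWAT against iWAT. Slc25a41 and Slc25a54 had reads in so few libraries that no difference in them was detectable at this depth.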
